A study of Mus musculus with 3 samples.

Results

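The loci examined were assembled transcripts lying antisense to annotated genes in the mouse heart ventricle. A locus was taken when at least 1 of its transcripts carried the class code x of the deposited annotation, which marks exonic overlap with a reference gene on the other strand, and none carried the codes =, j or o of transcripts on the reference strand. The rule found 2567 of the 48617 annotated loci, of which 136 held a transcript with 2 or more exons (spliced) and 2431 held transcripts of 1 exon (unspliced). The data were 3 stranded total RNA-seq libraries from ventricles of C57BL/6 mice, 1 of the embryonic day E10.5, 1 of E13.5 and 1 of adults at 8 weeks. No treatment or engineered allele was given for any of them. Where 3 values follow each other they are in the order E10.5, E13.5, adult. With 1 library per stage there was no replicate, so that no test between stages was possible and no value has an error from biological variation. In such bulk tissue, fewer cells of a type and less RNA per cell cannot be told apart. Levels are FPKM (fragments per kilobase of transcript, scaled to the mapped fragments of the library), a length-corrected unit. A change is the difference of log2(FPKM + 1) between 2 stages, which makes differences between low values look small, and was counted when it was 1 or more in size.

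Natural antisense transcripts are RNAs made from the strand opposite to a gene. Some start in the promoter region of the gene and run away from it, some run into its 3′ end from a neighbour, and some begin inside it, and well known examples such as Kcnq1ot1 act on imprinted genes. They are often long noncoding RNAs, but where genes lie nested in or tail to tail with other genes, the antisense transcript of a gene can equally be the messenger or the precursor RNA of its neighbour. A strand-specific library tells the strands apart, and a spliced transcript carries a second record of its strand, because introns begin with GT and end with AG only when read in the direction of transcription. Libraries of total RNA are not selected for polyadenylated tails.

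The splice sites of the assembled antisense transcripts were therefore read from the genome (GRCm38.p6, the build mm10 of the files). Of the 349 introns of the spliced loci, 333 (95.4%) ran from GT to AG on the antisense strand, 10 from GC to AG and 2 from AT to AC, while 0 had the ends CT and AC that an intron of the other strand would show, and 0 had the ends of an intron of the opposite gene. The share was 98.8% of 192118 introns in transcripts that matched the reference. The mapping program can itself use these ends to place an intron and set its strand. The counts are therefore no independent check of the strand. In GENCODE M21, a later annotation than that of the files, 170 of the 349 introns were present on the same strand. The sites below belong to spliced loci whose levels are described later and are shown so that their ends can be read on the antisense strand. Each line has 10 bases of exon and 20 of intron (donor) or 20 of intron and 10 of exon (acceptor), 5′ to 3′ on the antisense strand, with the 2 terminal bases of the intron in capitals.
Cpsf2-antisense donor, chr12:101975640-101975669, minus strand: caggctgaagGTgggtctggggaccccggc
Cpsf2-antisense acceptor, chr12:101969628-101969657, minus strand: tgttttgttttctgttttAGcagtcaagat
Ints2-antisense donor, chr11:86201543-86201572, plus strand: gttcgagcagGTaccgcggctgtgtctctt
Ints2-antisense acceptor, chr11:86206933-86206962, plus strand: aacaatgatttgtatgccAGgttaaaaggc
Kcnj6-antisense donor, chr16:94722071-94722100, plus strand: gataggttggGTgagtcatgctggacaaac
Kcnj6-antisense acceptor, chr16:94748871-94748900, plus strand: ttccgtttatttttgtgcAGgagtctggat
Lrrc15-antisense donor, chr16:30260958-30260987, plus strand: tcactaaacgGTgagtcccccaagcaatgt
Lrrc15-antisense acceptor, chr16:30269768-30269797, plus strand: gttcttcatgctctcccaAGgctggaaccg
Idua-antisense donor, chr5:108693816-108693845, minus strand: tcgagcttttGTgagtagagaggccgctgt
Idua-antisense acceptor, chr5:108691423-108691452, minus strand: ggtgattatttctgttgcAGaaagccagga

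The introns at Cpsf2, Ints2 and Kcnj6 are also introns of the GENCODE genes Ndufb1-ps, Brip1os and Gm41505, whereas those at Lrrc15 and Idua match none there. The first of each pair of lines is the 5′ end of an intron of 6022 bases at Cpsf2, 5400 at Ints2, 26810 at Kcnj6, 8820 at Lrrc15 and 2403 at Idua.

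A polyadenylation hexamer (AATAAA or ATTAAA on the transcribed strand) was searched in the last 50 bases of each locus. It was present in 17 of 136 spliced antisense loci (12.5%) and in 120 of 2431 unspliced ones (4.9%), against 62.3% of 22683 loci with a reference transcript. Loci outside annotated genes (class code u) held it in 9.9% when spliced and 6.6% when unspliced. The hexamers at the ends of the antisense loci of Cpsf2, Lrrc15 and Lrrc3b are shown in capitals, as examples of ends that do carry one.
Cpsf2-antisense end, chr12:101968109-101968138, minus strand: agttattggagaAATAAAaacatttactat
Lrrc15-antisense end, chr16:30274936-30274965, plus strand: tgtatctttaaaAATAAAttttaattaagt
Lrrc3b-antisense end, chr14:15458171-15458200, plus strand: agaaaaacatgaAATAAAtttacaatacca

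The hexamer ended 25 bases before the end of the Cpsf2-antisense locus, 16 before that of Lrrc15 and 15 before that of Lrrc3b. A missing match says only that these letters were not in the window, since the ends of assembled transcripts move with coverage.

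The class code and the coordinates were compared, because the code is given per transcript. Not all of the 2567 loci shared an exonic base with a reference locus of the opposite strand in the same annotation: those that did were 101 of 136 spliced (74.3%) and 1668 of 2431 unspliced loci (68.6%). The other 35 spliced and 763 unspliced loci overlapped the span of a reference locus of the opposite strand without touching an exon of it. For them the description as antisense to exons did not hold. The span ran from the first to the last base of the matched transcripts, and need not be the body of 1 gene. MicroRNA names gave such spans too: Mir3473 stood opposite 25 loci in Dip2b and Mir466d opposite 18 in Camk1d. Pairs below are the loci with shared exonic bases. The shared stretch had a median of 334 bases in spliced and 273 bases in unspliced pairs, and covered a median of 22.3% and 24.1% of the antisense exons. Antisense loci had a median length of 1465.5 bases when spliced and 913 bases when unspliced.

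Spliced and unspliced loci lay differently on the opposite gene. Of 101 spliced pairs, 32 were inside the gene, 34 ran past its 3′ end, 32 ran past its 5′ end and 3 spanned it. Of 1668 unspliced pairs, 1041 (62.4%) were inside the gene, 409 ran past the 3′ end, 201 past the 5′ end and 17 spanned it. The part of the opposite gene that held most of the shared bases was coding sequence in 41 spliced and 807 unspliced pairs, the 3′ UTR in 23 and 459, and the 5′ UTR in 22 and 144. The unspliced pairs fell on 1266 opposite loci, since several could share a gene, whereas the 101 spliced pairs fell on 100.

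Many spliced antisense loci have a name in a later annotation. At least 1 intron of GENCODE M21 was found in 68 of the 136, and the genes with these introns were of the biotype antisense for 37 loci, bidirectional promoter lncRNA for 5, lincRNA for 4, processed transcript for 8 and transcribed processed pseudogene for 1. For the other 13 loci the gene was protein coding. The antisense locus of A230072E10Rik, for instance, ran through 23 exons at chrX:151168789-151320147 and was Wnk3, which encodes a WNK kinase of ion transport, and those of Cdan1 and Nup214 had introns of Stard9 and Fam78a.

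Antisense loci were expressed at low levels. In 1 library or more, 100 of 136 spliced and 1401 of 2431 unspliced loci reached 1 FPKM, and the counts below by a change in level refer to these, which were selected on the same values. The median level of all spliced antisense loci was 0.582, 0.58 and 0.964 FPKM. That of the unspliced loci was 0.472, 0.116 and 0.794 FPKM. The order of the stages was therefore E13.5 below E10.5 below adult for unspliced loci, while the embryonic stages were alike for spliced loci, whose order-statistic intervals of the median (0.406 to 0.795 and 0.411 to 0.865 FPKM, 95%) overlapped almost whole. These intervals cover the choice of loci only, not the variation between hearts. Loci with a reference transcript had medians of 1.22, 1.55 and 1.11 FPKM.

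The low E13.5 values were shared with unspliced loci outside genes. There, 22805 unspliced loci had medians of 0.165, 0.0688 and 0.768 FPKM, and 545 spliced ones 0.507, 0.566 and 1.05 FPKM. E13.5 was the lowest of the 3 stages in 889 of 1401 unspliced antisense loci (63.5%), in 50.2% of unspliced loci outside genes, in 32 of 100 spliced antisense loci, in 29.8% of spliced loci outside genes and in 16.9% of loci with a reference transcript. The split thus followed splicing more than position relative to genes. Depth could be judged only roughly. By the most common product of FPKM and length among low values of unspliced loci of 1000 bases or more, 1 FPKM stood for about 14.8, 26.7 and 17.4 fragments per kilobase, the adult value being the least sharp. The study describes libraries of similar read number. The part of depth in the low E13.5 values was not tested.

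**Figure D1:**
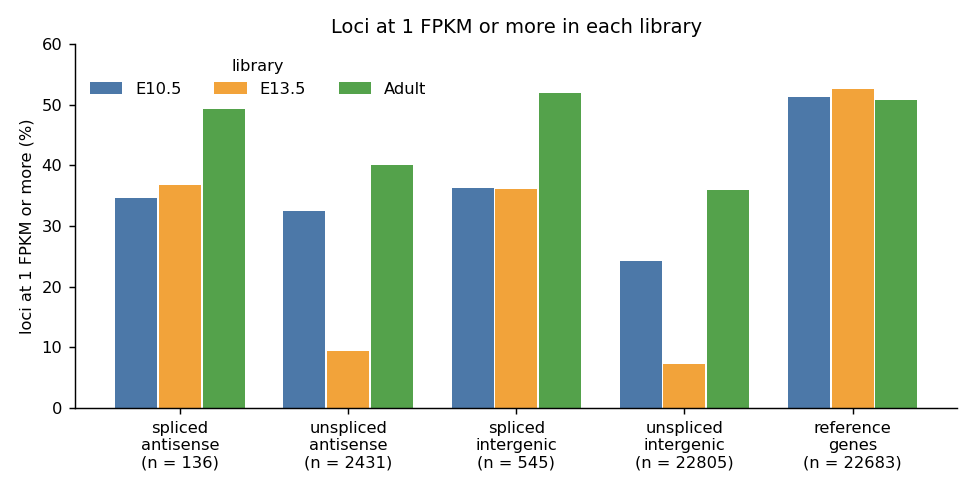
Share of loci at 1 FPKM or more (y axis, percent) in each library, for spliced and unspliced antisense loci, spliced and unspliced intergenic loci (class code u) and loci with a reference transcript. Bars are 1 library each with no error. The E13.5 bar is far below the others for both unspliced classes (9.34% of antisense and 7.31% of intergenic loci) and close to the E10.5 bar for the spliced classes.

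The tissue label was checked on markers. All 7 ventricular cardiomyocyte markers were present in every library, with Myl2 at 7790, 12200 and 11600 FPKM. The 4 atrial markers summed to 6370, 6760 and 40.9 FPKM, the 6 erythroid loci to 7140, 18100 and 205 FPKM, and the 6 macrophage markers to 6.9, 51.7 and 168 FPKM, with none at 0 in any library. The 5 liver markers summed to 8.13, 18.6 and 0.199 FPKM, with Alb listed at 0 in the adult. The 7 skeletal muscle markers summed to 24.1, 55.9 and 2.15 FPKM, with Myh2 listed at 0 at E13.5 and Pvalb in the adult. The part of blood and immune cells in the changes below was not tested.

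From E10.5 to E13.5, most spliced antisense loci changed by less than 1, with more rises than falls past it, and unspliced ones moved mostly down. Among the 100 spliced loci, 13 were higher and 6 lower by 1 or more, against 3.95% higher and 17.2% lower among all 26917 loci at 1 FPKM or more, and 6.38% and 9.93% among the 423 spliced loci outside genes. Among the 1401 unspliced loci, 24 (1.71%) were higher and 493 (35.2%) lower, against 1.74% higher and 28.7% lower of the 11951 unspliced loci outside genes. The unspliced antisense loci thus had the share of rises of the other unspliced loci, and falls were somewhat more frequent.

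From E13.5 to the adult the direction turned. Of the 100 spliced loci, 37 were higher and 20 lower, against 29.1% and 18.6% of all loci and 38.3% and 20.1% of spliced loci outside genes. Of the 1401 unspliced loci, 603 (43.0%) were higher and 39 (2.78%) lower, against 44.5% and 5.87% of unspliced loci outside genes.

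Over the whole span, E10.5 against adult, 38 of 100 spliced loci were higher and 13 lower, against 25.8% and 24.9% of all loci and 35.7% and 20.3% of spliced loci outside genes. Between E13.5 and adult and over the whole span, the shares of the spliced antisense loci were thus nearer to those of spliced loci outside genes than to those of all loci. Of the unspliced loci, 428 (30.5%) were higher and 296 (21.1%) lower, against 36.7% and 23.1% of unspliced loci outside genes. Loci with a reference transcript had, as deposited, a median change of 0.17 between the embryonic stages, -0.50 between E13.5 and adult and -0.39 over the whole span. When the libraries were rescaled so that these reference loci were centred (median-of-ratios), their medians became 0.05, -0.05 and -0.07, and the spliced antisense loci counted 43 higher and 10 lower over the whole span, the unspliced ones 588 higher and 243 lower. After scaling, rises therefore outnumbered falls by more in both classes.

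The spliced antisense loci with the highest levels lay opposite Cpsf2 and Ints2. The antisense locus of Cpsf2, which encodes a subunit of the cleavage and polyadenylation specificity factor, lay at chr12:101968096-101976268 on the minus strand, ran past the 5′ end of the gene and had 82.9, 122 and 214 FPKM. Cpsf2 itself had 21.8, 25.4 and 9.19 FPKM, so that the antisense locus was 3.8, 4.79 and 23.3 times the gene. Opposite Ints2, a subunit of the Integrator complex that processes small nuclear RNAs, a plus-strand locus at chr11:86201356-86211676 covered the 3′ UTR and had 17.6, 21.6 and 5.60 FPKM. Ints2 had 19.8, 10.6 and 4.33 FPKM. Both strands of Ints2 fell between E10.5 and adulthood (changes of -1.50 and -1.96), whereas those of Cpsf2 went in opposite directions (1.36 for the antisense locus and -1.16 for the gene).

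At several genes that were barely expressed, the antisense locus had a far higher level than the gene. That of Kcnj6, which encodes an inwardly rectifying potassium channel, lay at chr16:94721672-94754652 and had 14.9, 16.5 and 1.46 FPKM, whereas Kcnj6 had 0.0353, 0.0192 and 0.136 FPKM. Its change of -2.69 over the whole span was the largest fall among spliced pairs. Antisense to Ctcfl, the germline paralogue of Ctcf, the locus had 5.47, 1.53 and 0.771 FPKM against 0.0149, 0.0317 and 0.103 for the gene. Antisense to Gm5105, GENCODE's 1110002E22Rik had 9.38, 3.62 and 19 FPKM against 0.268, 0.248 and 0.56 for Gm5105. These levels are of whole loci, most of which lay off the exons of the gene. The shared part was 20.9% of the exonic bases at Kcnj6, 24.1% at Ctcfl and 4.5% at Gm5105.

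Several spliced antisense loci were high in the adult library and near 0 in the embryonic ones, opposite genes of high as well as low level. At Tecr, an enzyme of very long chain fatty acid elongation, it ran from the 5′ end of the gene at chr8:83576085-83597261 and had 0.183, 0.346 and 8.96 FPKM. Tecr was abundant throughout, with 113, 158 and 222 FPKM, and the ratio of antisense to gene was 0.00162, 0.0022 and 0.0404. At Lrrc15, which encodes a leucine-rich repeat membrane protein, it covered 4735 exonic bases of the other strand and had 0.141, 0.026 and 5.39 FPKM, while Lrrc15 had 0.119, 0.108 and 0.0736 FPKM. At Plscr5, of the phospholipid scramblase family, the gene was listed at 0 in all 3 libraries and the antisense locus had 0.123, 0.0172 and 5.48 FPKM. At Lrrc3b both strands rose, the antisense locus from 0.304 to 4.91 FPKM and the gene from 1.67 to 13.3 FPKM from the earliest to the latest stage. The part of the antisense exonic bases shared with the gene was 1.3% at Tecr, 72.6% at Lrrc15, 2.0% at Plscr5 and 1.0% at Lrrc3b.

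Spliced antisense loci that declined towards adulthood included the A230072E10Rik locus named above (Wnk3) with 3.63, 2.66 and 0.125 FPKM and that of 8030423J24Rik with 1.76, 0.499 and 0.0834 FPKM. Opposite Fam60a, a subunit of a Sin3 histone deacetylase complex, the locus had 0.971, 2.20 and 0.0308 FPKM and fell with its gene (15.2, 15.3 and 1.07 FPKM). Opposite directions were found at Lphn1 and Clvs1, whose antisense loci were listed at 0 at E10.5 and reached 1.68 and 1.59 FPKM in the adult, while Lphn1 went from 6.93 to 1.66 FPKM and Clvs1 from 1.72 to 0.209 FPKM. At Idua, a lysosomal enzyme of glycosaminoglycan breakdown, the antisense locus had 1.44, 4.82 and 0.175 FPKM and the gene 1.80, 2.12 and 4.74 FPKM. Each of these values rests on 1 library.

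**Figure D2:**
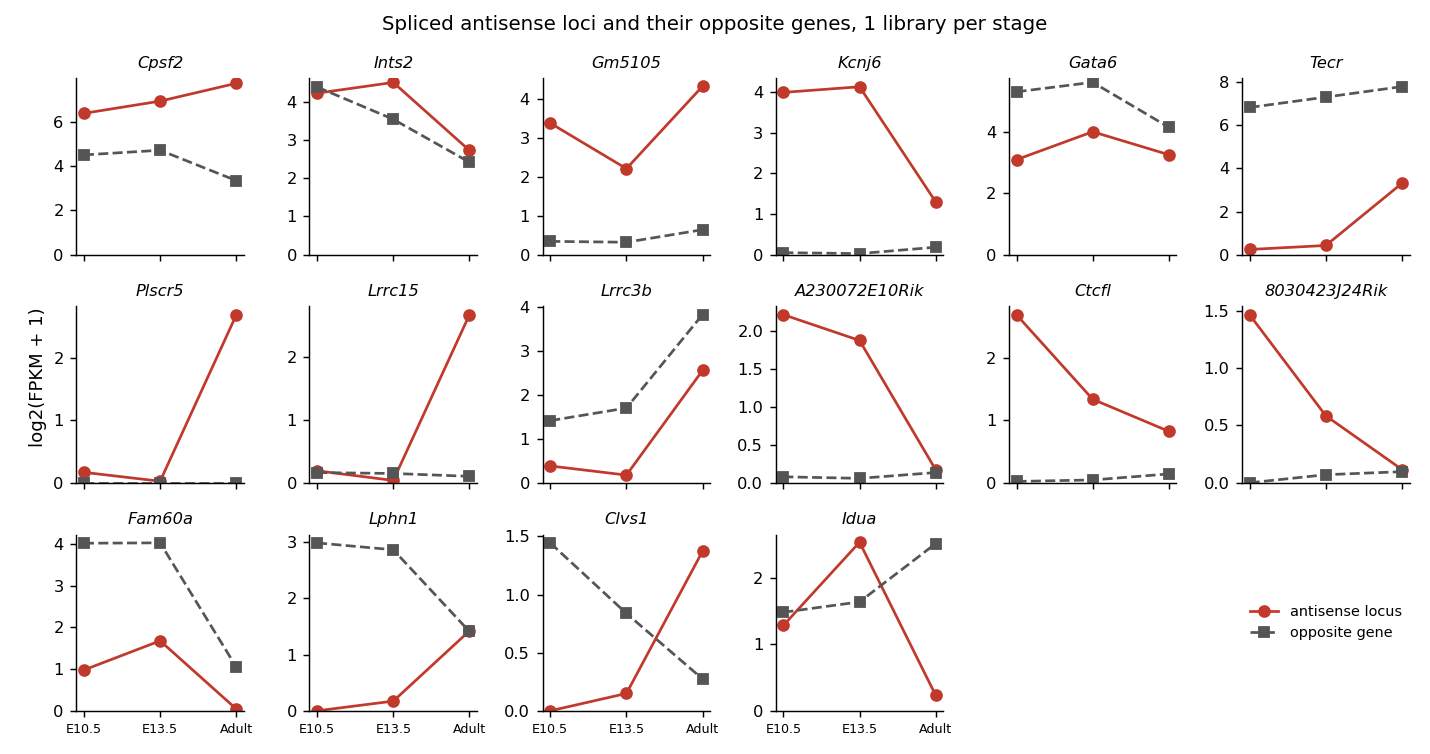
Levels of 16 spliced antisense loci (red circles, solid line) and their opposite genes (grey squares, dashed line) in the 3 libraries, as log2(FPKM + 1) with a y axis from 0 that differs between panels, titled by the opposite gene. Between the first and the last stage the 2 strands move together at Ints2, Tecr, Lrrc3b and Fam60a and apart at Cpsf2, Lphn1, Clvs1 and Idua.

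The gene lists of heart and other functions were searched for antisense loci. Of 24 cardiac transcription factors, 4 had an antisense locus with shared exonic bases, against 1356 of all 22700 reference loci (5.97%). Gata6, a zinc finger factor of cardiac lineages, was the only one with a spliced antisense locus under the rule used here, at chr18:11043494-11053125 and running past its 5′ end. It had 7.53, 15 and 8.53 FPKM, and Gata6 38.4, 47.8 and 16.7 FPKM. Both were highest at E13.5, and the ratio of antisense to gene was 0.196, 0.313 and 0.51. The unspliced antisense loci of Hand2, Tcf21 and Sall4 had at most 0.769, 1.60 and 3.97 FPKM. The study itself lists spliced antisense lncRNA candidates for Gata6, Tbx5, Sall4 and Nr2f1, and for Cpsf2, Kcnj6 and Cdan1 among the genes named above. The rule leaves out loci with a transcript of code =, j or o, so a gene without a locus here can still have an antisense transcript.

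Among 18 genes of calcium handling and ion channels, Pln, the phospholamban gene, had an antisense locus, at chr10:53345413-53346566, with 1.92, 1.10 and 4.56 FPKM against 505, 745 and 4550 FPKM for the gene. This locus was unspliced, and its ratio to Pln was 0.00381, 0.00148 and 0.001. It lay inside Gm9766 of its own strand, which had 8.85, 6.0 and 20.8 FPKM. The part of reads assigned to the wrong strand was not tested. Eln, Epor and Dlk1 each had 1 antisense locus and Ttr 2, none at 1 FPKM or more, and the locus that joins BC090627, Chkb and Cpt1b had 1, of at most 0.924 FPKM. None was found for 13 proliferation genes, 17 RNA-binding and splicing regulators, 13 housekeeping genes or the markers of atrium, macrophages and skeletal muscle.

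The unspliced loci with the highest levels were mostly short or repeated sequences. Opposite Gm5148, the locus at chr3:37714627-37715397 had 404, 597 and 93.4 FPKM, but 65.9% of its bases were near-identical to Rps23, a ribosomal protein gene. The locus of 160 bases opposite Slc7a11, the cystine transporter, had 151 FPKM at E10.5 and was listed at 0 later, and 100% of it matched Gm14150. That of Hmga2-ps1 had 59.6, 19.4 and 0 FPKM and matched Hmga2, an embryonic chromatin protein, along its whole length. The locus of 575 bases opposite Gfer had 22.3, 10.6 and 115 FPKM and 99.5% of it matched Dst. Such loci, 19 unspliced and 1 spliced with 50% or more of their bases at 95% identity or more to a transcript elsewhere, are uncertain, because reads of the other copy could be placed there.

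Other high values lay on loci for which no such copy was found among GENCODE transcripts read on the same strand. That search does not cover repeated sequence outside annotated transcripts. The locus opposite Rn45s, the precursor of ribosomal RNA, had 448, 341 and 250 FPKM, and Rn45s 3680, 946 and 300 FPKM. On the strand of this locus GENCODE has the gene CT010467.1. The locus of 393 bases opposite the 3′ UTR of Lars2, the mitochondrial leucyl-tRNA synthetase, had 445, 212 and 197 FPKM against 9.02, 3.29 and 7.06 FPKM for Lars2. The locus opposite Hltf, a helicase-like factor, extended past the 3′ end of the gene at chr3:20116280-20119190 and fell from 10.7 FPKM to 0.61 and 0.464 FPKM, whereas Hltf stayed between 15.8 and 17.7 FPKM. At Basp1 both strands were lowest in the adult, with 13.8, 41.4 and 2.62 FPKM for the antisense locus and 15.7, 24.3 and 2.35 FPKM for the gene. At Serp2 the antisense locus went from 4.44 FPKM to 0.21 and was listed at 0 in the adult, where Serp2 was listed at 0 as well after 8.80 and 9.68 FPKM in the embryo.

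The levels of the 2 strands were then compared across all pairs in which both were above 0 and at least 1 strand had 1 FPKM or more. In these pairs the antisense locus was usually the weaker strand. The filter left out many pairs. In the adult, 304 of 1668 unspliced pairs had a strand listed at 0, and 537 had both strands above 0 but under 1 FPKM. In spliced pairs the median ratio of antisense to gene was 0.24 (95% interval over pairs 0.122 to 0.426, n = 60), 0.272 (0.0944 to 0.694, n = 68) and 0.395 (0.18 to 0.93, n = 71). The intervals overlapped. In unspliced pairs it was 0.141 (0.113 to 0.172, n = 768), 0.037 (0.0323 to 0.0426, n = 651) and 0.219 (0.189 to 0.263, n = 827), and the intervals did not overlap. With both strands at 1 FPKM or more, which leaves out the lowest values, the unspliced medians were 0.277, 0.212 and 0.38. The antisense locus exceeded the gene in 14, 22 and 26 spliced pairs and in 194, 54 and 228 unspliced pairs, which for the adult was 36.6% of the spliced and 27.6% of the unspliced pairs.

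The level of an antisense locus hardly followed the level of the gene. Of the 1668 unspliced pairs, 993, 950 and 1002 lay opposite genes under 1 FPKM at the 3 stages. There the antisense loci had a median of 0.307, 0.08 and 0.629 FPKM, and opposite genes of 10 to 100 FPKM 0.558, 0.202 and 0.793 FPKM. The ratio therefore fell with the level of the gene, from 2, 0.773 and 5.33 in the lower of these classes to 0.0257, 0.0104 and 0.0316 in the higher. Opposite the 11, 21 and 12 genes at 100 FPKM or more, the median ratio was 0.00381, 0.000741 and 0.00569.

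The changes of the 2 strands were compared for pairs in which both had 1 FPKM or more in at least 1 library, 45 spliced and 414 unspliced. From E10.5 to E13.5, 27 of 45 spliced pairs (60%, Wilson 95% interval 45.5 to 73.0) moved in the same direction, where the separate shares of rising antisense loci and rising genes would give 52.9%. Between E13.5 and adult it was 20 (44.4%, against 49.5%), and over the whole span 22 (48.9%, against 48.8%). Of the unspliced pairs, 40.3%, 44.2% and 45.9% moved in the same direction, against 40.2%, 42.8% and 49.8% from the separate shares. Pearson's r between the changes was 0.08, -0.02 and 0.10 in spliced and -0.08, 0.10 and -0.13 in unspliced pairs, across pairs that come from the same 3 libraries and in part share a gene.

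Changes of 1 or more on both strands were few. Over the whole span, 20 unspliced pairs rose together by 1 or more, 12 fell together, 21 had a rise of the antisense locus with a fall of the gene and 33 the reverse. For spliced pairs these counts were 1, 1, 3 and 1. Between E13.5 and adult the same 4 counts were 30, 7, 25 and 4 in unspliced and 2, 3, 2 and 1 in spliced pairs. Counts expected from the separate shares were not calculated for changes of this size. From E10.5 to E13.5 they were 0, 6, 0 and 22 in unspliced and 2, 0, 1 and 0 in spliced pairs.

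**Figure D3:**
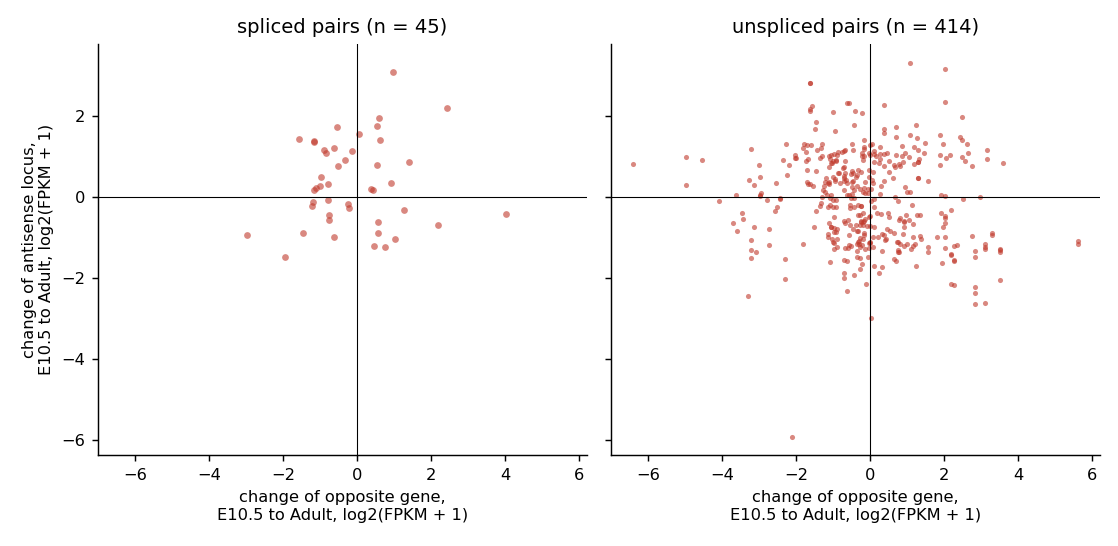
Change of the antisense locus (y axis) against that of its opposite gene (x axis) between the E10.5 and adult libraries, on the log2(FPKM + 1) scale, 1 point per pair, for 45 spliced and 414 unspliced pairs. The points fill all 4 quadrants (r = 0.10 and -0.13).

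Unspliced antisense loci were followed more closely on their own strand. Of the 2431, 1033 (42.5%) lay wholly inside the body of a reference gene of the strand they were transcribed from, in 292 such genes. These included all 763 unspliced loci without a shared exonic base. Only 2 of 136 spliced loci lay so. In GENCODE M21, 1076 unspliced loci were inside a gene of their own strand without touching an exon, 240 touched an exon and 1115 had no gene on their strand. The unspliced loci inside an own-strand gene had medians of 0.787, 0.183 and 1.45 FPKM at the 3 stages, and the 1398 others 0.33, 0.0908 and 0.595 FPKM.

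The changes of these loci went with the gene they lay in. For the 792 with 1 FPKM or more in both, r between the changes of locus and own-strand gene was 0.38 between the embryonic stages, 0.58 between E13.5 and adult and 0.68 over the whole span, and 57.3%, 61.4% and 71.3% moved in the same direction, against 49.3%, 53.9% and 49.5% from the separate shares. Of these, 310 also had an opposite gene at 1 FPKM or more. For loci without a shared exonic base, this was the reference locus of the opposite strand whose span they overlapped. Of the 414 unspliced pairs with shared exonic bases compared above, 337 lay outside own-strand genes. Most of the 310 therefore shared no exonic base with the opposite gene. In the same 310 loci over the whole span, r was 0.74 with the own-strand gene and -0.20 with the opposite gene, and the same direction was found in 81.3% and 51.3%. Of the 310, 88 lay in Filip1l, and without them (222 loci) r was 0.70 and -0.27, with the same direction in 73.9% and 32.0%, against 49.6% and 50.2% from the separate shares. Several loci can share a gene, and with 1 median per own-strand gene (207 genes) r was 0.32, 0.55 and 0.54. The 222 loci lay opposite 74 genes and are not independent of each other. No value with 1 median per opposite gene was calculated, so the shares with the opposite gene weigh genes with many loci most.

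**Figure D4:**
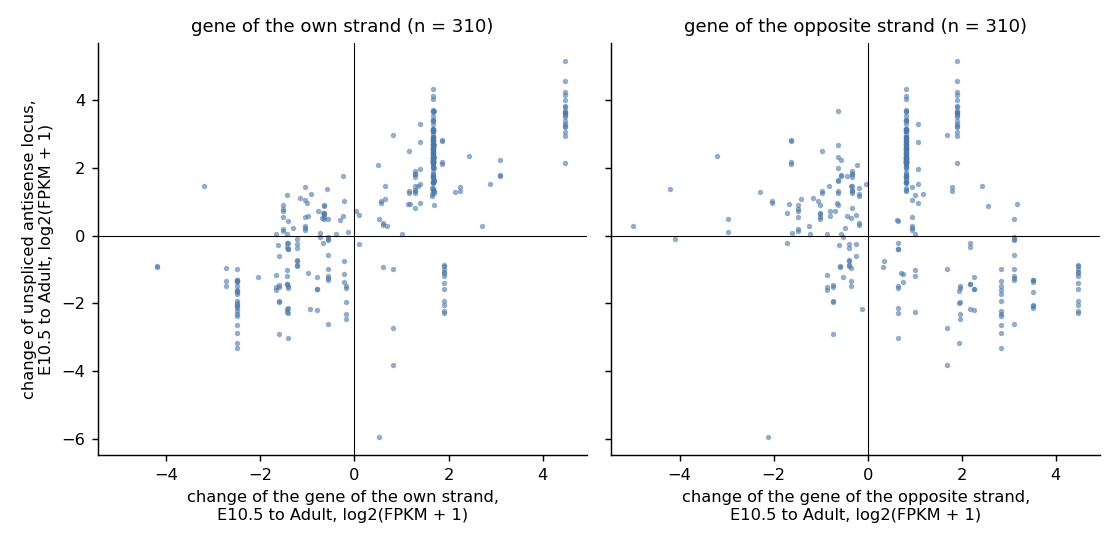
Change between the E10.5 and adult libraries of 310 unspliced antisense loci (y axis) against that of the reference gene of their own strand (left) and of the opposite strand (right), on the log2(FPKM + 1) scale. Vertical rows of points are loci that share a gene, the longest being the 88 in Filip1l. The left panel rises along the diagonal (r = 0.74), the right one does not (r = -0.20).

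The loci were unevenly spread over these genes: 149 genes held 1 locus, and 16 genes with 10 or more held 374. Joined over gaps of up to 10000 bases on a strand, the 2431 unspliced loci formed 1450 clusters, of which 1097 were of 1 locus and the largest had 84. That cluster lay in Filip1l, a filamin interactor, which contained 88 loci at chr16:57354143-57557397. The genes named in this and the next paragraphs were chosen after their values were seen.

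All 88 loci in Filip1l had more FPKM in the adult than in the E10.5 library, with a median of 0.335, 0.0877 and 6.62 FPKM. Filip1l rose from 6.03 to 14.6 and 21.5 FPKM and the opposite gene 2610528E23Rik from 16.3 to 21 and 29.5 FPKM. In the middle stage the loci and both genes thus parted.

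The proteoglycan genes Aspn, Ecm2, Ogn and Omd lie in the body of Cenpp, a centromere protein gene, on the opposite strand. The 25 loci of the Cenpp strand there had a median of 4.46, 0.511 and 0.353 FPKM, and 0 of them had more FPKM in the adult than in the E10.5 library. Cenpp had 13.3, 18.8 and 1.53 FPKM. Aspn, which encodes asporin of the extracellular matrix, went the other way with 1.70, 5.76 and 18.3 FPKM, and 3 of the 4 strongest opposite changes among unspliced pairs were loci at Aspn. The remaining one was the locus opposite Evi2a and Evi2b at chr11:79526933-79527248, with 8.88, 0.446 and 0.608 FPKM against 0.196, 2.17 and 9.28 FPKM. It was 1 of 15 loci inside Nf1, the neurofibromin gene, whose level was 16.7, 7.04 and 11 FPKM.

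Heart genes differed in how the loci inside them compared with the gene. The 9 loci in Cacna1c, the pore subunit of the L-type calcium channel, opposite Dcp1b of mRNA decapping, had a median of 9.94, 0.766 and 33.8 FPKM, and Cacna1c 16, 8.39 and 53.7 FPKM. Dcp1b had 2.79, 2.33 and 1.47 FPKM. The 23 loci in Sorbs2, an adaptor of the Z-disc, had a median of 24.6, 7.19 and 13.4 FPKM, and Sorbs2 68.5, 35.9 and 53.3 FPKM. The 4 loci in Kcnq1, a cardiac potassium channel gene, opposite the imprinted RNA Kcnq1ot1, had a median of 1.25, 0.0458 and 10.2 FPKM, and Kcnq1 had 3.14, 4.52 and 14.1 FPKM, so that locus and gene went apart between the embryonic stages and rose together afterwards. Kcnq1ot1 fell from 6.20 to 2.32 and 1.33 FPKM, and 2 of these loci were among the 5 largest rises of unspliced pairs. The 6 loci in Ctnna3, a catenin of the intercalated disc, had a median of 3.20, 0.276 and 2.61 FPKM, and Ctnna3 had 30, 14.1 and 35.7 FPKM. The single locus in Myo18b, an unconventional myosin of striated muscle, had 4.35, 0 and 1.09 FPKM, while Myo18b had 17.5, 9.95 and 36.1 FPKM and thus rose over the span in which the locus fell.

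Triadin, a protein of the junctional sarcoplasmic reticulum encoded by Trdn, showed both strands. D830005E20Rik, the reference antisense gene of Trdn, held 20 loci with a median of 1.07, 0 and 24.1 FPKM, all of them increasing over the whole span, and its own level was 1.14, 0.178 and 46.7 FPKM. On the Trdn strand, 14 loci had a median of 1.96, 0.0555 and 0.276 FPKM and 1 of 14 was higher in the adult, although Trdn rose from 45.2 and 40.2 to 171 FPKM. In the 16 genes with 10 or more loci, the median change of the loci over the whole span had the sign of the gene's change in 12 and the other sign in 4, among them Trdn and Shroom4, in which 28 loci had a median of 1.88, 0.0964 and 0.146 FPKM against 6.18, 3.17 and 6.89 FPKM for the gene.

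**Figure D5:**
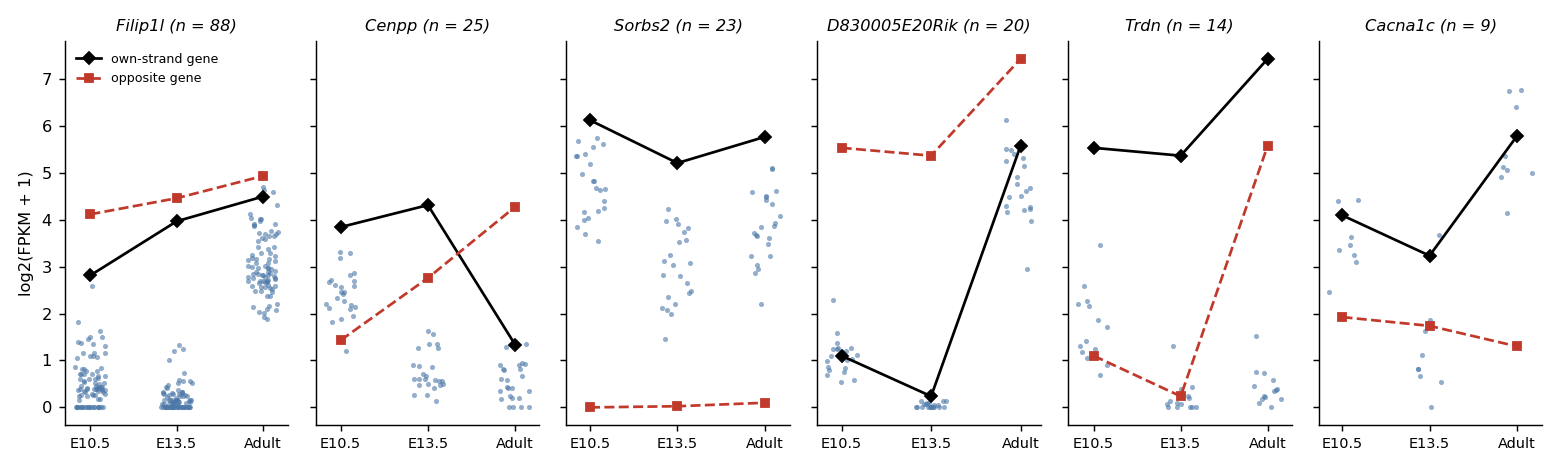
Levels, as log2(FPKM + 1), of unspliced antisense loci (blue points, spread sideways for view) inside 6 genes of their own strand in the 3 libraries, with the own-strand gene (black diamonds) and the opposite gene, or the median over several, (red squares). In Sorbs2, D830005E20Rik and Cacna1c the median of the loci has the order of stages of the black line. In Cenpp and Filip1l the loci fall at E13.5 where the gene rises, and in Trdn they are lower and the gene higher in the adult than in the E10.5 library.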

How the data were processed

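Ventricular total RNA of 3 stages was sequenced in 1 stranded paired-end library each. Per the labels and the study, the authors mapped reads to mm10 with TopHat2 and Bowtie and assembled and quantified transcripts with Cufflinks (releases not given in the sources used here). The deposited table holds FPKM per locus, and the deposited annotation gives exon positions and class codes. Here, Python 3.11.15 with pandas 2.3.3 was used. Opposite genes were reference loci (class code =, j or o) sharing at least 1 exonic base on the other strand. Where loci inside own-strand genes are described, those without such a base were given the opposite-strand reference locus whose span they overlapped. Changes used a pseudocount of 1, a minimum of 1 FPKM in at least 1 library and a size of 1. Sequences came from GRCm38.p6, later annotation from GENCODE M21, and near-identical copies from blastn 2.17.0. Calls were tested on simulated data for E10.5 to adult with 2567 loci, where 100 of 100 planted 8-fold rises, 91 of 100 planted 8-fold falls and 6 of 2367 unchanged loci were called. The simulated loci had counting noise only and a minimum starting level above the median level of the real loci. These shares therefore do not carry over to loci of lower level. The named pairs were, for spliced and unspliced loci apart, the 6 highest, the 5 largest rises and falls, the 4 largest joint and the 4 largest opposite changes from E10.5 to the adult, and spliced loci opposite a listed gene. The loci and gene lists were chosen with earlier results of these data known. Intervals over loci cover neither biological variation nor counting error. Depth per library was estimated roughly from the lowest FPKM values; the study describes similar read numbers for all libraries. Some pairs that met this rule are not reported here.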

Additional observations from a re-analysis of the deposited data

How the results depend on the processing

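With 1 library per stage, no result has a replicate check. No paired analysis was possible because no stage had a replicate. Of 178 recalculated values 137 stayed within their limit (counts within 1.5 times, other values within their 95% interval) and 41 moved. The cause of a move was not tested where the construction does not give it. Some values could not move. The counts are the same without the filter on low values, since a change of 1 needs at least 1 FPKM. The same-direction shares are the same at a pseudocount of 0.1, since the sign of a change stays. With a pseudocount of 0.1, which counts smaller differences of low loci, the spliced loci counted 24 higher and 18 lower from E10.5 to E13.5 and 25 lower over the whole span, E10.5 to adult, and the unspliced ones 115 higher and 839 lower from E10.5 to E13.5 and 948 higher and 86 lower between E13.5 and adult. At a change of 2, the 3 comparisons in order gave 2 higher and 0 lower, 13 and 5, and 12 and 2 spliced loci, and 2 and 83, 177 and 10, and 136 and 48 unspliced loci. With loci of 500 bases or more, 8 spliced loci were higher from E10.5 to E13.5, and the unspliced ones counted 9 and 317, 368 and 15, and 257 and 193. Under median-of-ratios scaling 13 unspliced loci were higher from E10.5 to E13.5 and 25 lower between E13.5 and adult. Where every transcript had to be of class x, 2 spliced loci were lower from E10.5 to E13.5. Without values listed at 0, 25 unspliced loci were lower between E13.5 and adult and 275 higher over the whole span. With both strands at 1 FPKM or more, the median ratio in unspliced pairs was 0.277, 0.212 and 0.38. The next alternatives were added after seeing the data. The same-direction share with the own-strand gene was 65.7% over the whole span with 1 median per gene, and under scaling it was 61.8%, 78.7% and 67.5%, and without the loci in Filip1l 62.5%, 56.5% and 67.8%. Leaving out near-identical copies, or loci inside own-strand genes from the opposite-strand shares, moved none of those values past their limit. The low FPKM values limit what can be seen of loci under about 1 FPKM.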

Other observations

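Further genes, chosen after their values were seen, held unspliced loci on their own strand opposite other genes. In Med12l, a subunit gene of the Mediator kinase module, 14 loci opposite the receptor genes P2ry12, P2ry14 and Gpr171 and F630111L10Rik had a median of 3.94, 0.363 and 1.16 FPKM in the order E10.5, E13.5, adult. Med12l had 16.7, 5.17 and 5.57 FPKM, and the median of the opposite genes rose from 0.0634 to 0.273 and 1.71 FPKM. In Mcph1, the microcephalin gene, 9 loci opposite Angpt2, a ligand of vascular remodelling, had a median of 4.78, 0.254 and 1.04 FPKM against 9.44, 7.16 and 2.89 FPKM for Mcph1 and 0.909, 3.44 and 2 FPKM for Angpt2. In Supt3h, 11 loci opposite Runx2, a bone transcription factor, had a median of 1.96, 0.487 and 1.08 FPKM, with Supt3h at 11.5, 6.78 and 4.41 FPKM and Runx2 at 0.0551, 0.0378 and 0.299 FPKM.

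At the imprinted Gnas locus, 4 loci on the strand of the antisense RNA Nespas had a median of 1.80, 1.11 and 0.22 FPKM. Nespas had 2.92, 2.11 and 0.228 FPKM, and Gnas, a G protein subunit, had 540, 584 and 298 FPKM. In Tmem108, 2 loci opposite 4932413F04Rik had a median of 6.06, 0.626 and 0.418 FPKM against 13.0, 13.8 and 0.142 FPKM for Tmem108.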
